A study of Mus musculus with 18 samples.

Results

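The G1 cyclins and CDK inhibitors measured here are 10 genes of the 48023 in the count table: the D cyclins Ccnd1, Ccnd2 and Ccnd3, the E cyclins Ccne1 and Ccne2, and the inhibitors Cdkn1a, Cdkn1b, Cdkn2a, Cdkn2b and Cdkn2c. They were found by matching the Ensembl identifiers of the table to gene symbols. All 10 had enough counts to be tested, among 15071 such genes. The cells were a line of brown preadipocytes, the precursors of brown fat cells, derived from stromal-vascular cells of this tissue in the mouse and immortalized with SV40 T antigen. The 18 libraries fell into 6 groups of 3: cells given vehicle (Veh) or recombinant FGF6, a paracrine fibroblast growth factor, for 4 h, 8 h or 24 h. All 6 groups carried T antigen, whose large form is known to bind the retinoblastoma protein and p53, on which several of these genes act. The labels name neither separate cultures nor batches, and p-values therefore measure only the spread between these libraries.

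D cyclins bind CDK4 and CDK6 and carry mitogen signals to the cell cycle, and E cyclins bind CDK2 and act at the start of DNA replication. Both kinds of complex phosphorylate the retinoblastoma protein RB, which otherwise holds E2F transcription factors in check. Inhibitors of the Cip/Kip family, p21 from Cdkn1a and p27 from Cdkn1b, bind cyclin-CDK complexes. Those of the INK4 family, p16Ink4a from Cdkn2a, p15 from Cdkn2b and p18 from Cdkn2c, bind CDK4 and CDK6 and displace D cyclins. Cdkn2a also encodes p19Arf, which inhibits Mdm2 and so stabilizes p53. Growth factor signalling through the MAP kinase pathway is known to raise Ccnd1 and to lower p27 in many cell types.

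Each library held 24327816 to 33471980 counts, so every member was read at least 833 times in every library. Values are counts per 1000000 (CPM) of the library total, scaled by TMM factors that ranged from 0.951 to 1.05. The summed levels of cell type markers use library totals without these factors. Changes are log2 fold changes ± SE from edgeR's quasi-likelihood test, with p-values adjusted by the Benjamini-Hochberg method over all 15071 genes and called below 0.05. All 18 libraries lay closest to the mean of their own group, but vehicle replicate 3 at 24 h stood apart from the others of its group. In pairwise comparison its counts gave a chi-square per degree of freedom of 34.46 and 37.56, against 2.34 to 7.05 for the 16 other pairs of a group. Its mitochondrial share was 2.25%, against 1.94% and 1.99% in the other vehicle libraries of 24 h and 2.28% to 2.34% with FGF6. The 20 most counted genes held 7.44% of its counts, against 6.47% and 6.64% in vehicle and 7.73% to 7.84% with FGF6. On both measures it lay nearer to the FGF6 libraries, and the cause was not tested. Results at 24 h are therefore also given without this library. The cells had all 8 markers of preadipocytes and stromal cells, and the summed level of these markers was lower with FGF6 (1878 to 1942 CPM at 24 h, against 6085 to 6537 CPM in vehicle). Markers of other cells were low in every library, at no more than 4.37 CPM in sum for the 6 leukocyte markers, 5.57 CPM for the 5 endothelial markers and 18 CPM for the 6 skeletal muscle markers. The 7 markers of mature adipocytes summed to 62.5 to 169 CPM, with Lep, Cidea and Cfd at no more than 3 counts in every library. In RNA from whole cultures, a smaller number of cells in one state and less RNA per cell cannot be told apart, and the part of the marker shift in the results below was not tested. The 5 genes used as a check of FGF signalling, Dusp6, Spry2, Spry4, Etv4 and Etv5, were all higher with FGF6 at all 3 times. Dusp6, a phosphatase that acts on ERK, went from 30.8 ± 1.05 to 464 ± 16.1 CPM (mean ± SD, n = 3) at 4 h.

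Some of these genes overlap others. The strand setting of the counting was not stated, and Ccnd1 shares 1100 of its 4709 exonic bases with LTO1 on the opposite strand, Ccnd3 shares 361 with Bysl, Ccne2 shares 609 with Ints8 and Ccnd2 shares 740 with antisense genes of 0 to 11 counts. LTO1 had 410 to 708 counts and fell at all 3 times, by 0.26 to 0.38 on the log2 scale, while Ccnd1 rose. Bysl rose at all 3 times (log2 fold change 0.50, 0.97 and 0.71). Ccnd3 was called at no time in the main fit, but was called as higher at 8 h under some other settings given below. Ints8 had a log2 fold change of -0.09 at 4 h, 0.01 at 8 h and 0.45 at 24 h. The p16Ink4a and p19Arf transcripts of Cdkn2a use different first exons and share the rest, and a count per gene does not separate them.

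Promoters were read from RefSeq sequences on GRCm38.p6. Ccnd1, Ccnd2 and Ccne2 were not among these sequences and were not scanned. The other 7 of the 10 members were found, with 11 start sites. The stretches before the start are shown for the 4 of them that changed in the same direction at all 3 times, Ccne1, which was higher with FGF6, and Cdkn1b, Cdkn2a and Cdkn2b, which were lower. Bases inside annotated exons are left out. Capitals mark matches to an E2F site (TTTCGCGC, TTTGGCGC, TTTCCCGC or TTTGCCGC), a CRE (TGACGTCA), a GC box (GGGCGG) or a CCAAT box (CCAAT), on either strand.
Ccne1, chr7:38107535-38107740, minus strand: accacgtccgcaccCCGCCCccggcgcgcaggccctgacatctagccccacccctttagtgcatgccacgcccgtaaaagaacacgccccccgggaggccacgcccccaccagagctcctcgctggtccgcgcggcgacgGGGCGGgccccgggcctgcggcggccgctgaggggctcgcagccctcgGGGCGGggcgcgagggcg
Cdkn1b, chr6:134920151-134920400, plus strand: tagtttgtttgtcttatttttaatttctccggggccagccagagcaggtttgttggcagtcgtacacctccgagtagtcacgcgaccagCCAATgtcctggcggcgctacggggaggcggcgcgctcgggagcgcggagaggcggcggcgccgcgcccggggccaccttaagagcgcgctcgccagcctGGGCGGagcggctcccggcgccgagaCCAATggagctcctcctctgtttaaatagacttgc
Cdkn2a, start of the p16Ink4a transcript, chr4:89282193-89282442, minus strand: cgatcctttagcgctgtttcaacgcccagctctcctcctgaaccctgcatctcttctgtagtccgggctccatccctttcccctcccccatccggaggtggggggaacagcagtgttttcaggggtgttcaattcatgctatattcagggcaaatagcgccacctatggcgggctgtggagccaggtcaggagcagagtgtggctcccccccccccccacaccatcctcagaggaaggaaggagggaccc
Cdkn2a, start of the p19Arf transcript, chr4:89294654-89294869, minus strand: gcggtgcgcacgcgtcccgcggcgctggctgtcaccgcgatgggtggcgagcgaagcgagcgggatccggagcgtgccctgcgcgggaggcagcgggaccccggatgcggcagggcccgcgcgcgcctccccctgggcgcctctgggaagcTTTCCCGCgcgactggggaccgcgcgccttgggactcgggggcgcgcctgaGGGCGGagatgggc
Cdkn2b, chr4:89311040-89311282, minus strand: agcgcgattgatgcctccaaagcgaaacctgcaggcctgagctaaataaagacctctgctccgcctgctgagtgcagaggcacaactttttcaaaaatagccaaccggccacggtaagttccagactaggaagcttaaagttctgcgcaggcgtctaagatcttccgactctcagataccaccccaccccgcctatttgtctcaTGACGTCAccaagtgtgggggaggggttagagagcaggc

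In the 250 bases before the start, the CRE word occurred in Cdkn2b alone among the 11 promoters, and in 1.5% of 32851 promoters of all genes. An E2F word occurred in 1 of the 11, before the p19Arf start of Cdkn2a, and in 1.9% of all promoters. The GC box occurred in 7 of the 11 and in 32.7% of all, and the CCAAT box in 2 of the 11, with 2 copies in Cdkn1b, and in 33.8% of all. Words for AP-1 (TGACTCA or TGAGTCA, in 4.5% of all promoters) and ETS factors (CCGGAAGT, in 2.9%) occurred in none of the 11, and the FOXO word TGTTTAC, in 3.2% of all, occurred in 1 promoter of Ccnd3. These matches are letters in a window and were not measured as binding. None of the 11 promoters belongs to Ccnd1, Ccnd2 or Ccne2.

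Across the 10 genes, FGF6 raised 5 and lowered 3 at 4 h, raised 5 and lowered 4 at 8 h, and raised 3 and lowered 4 at 24 h. Of all genes tested, 28.6% were higher and 34.2% lower at 4 h, 32.4% and 38.4% at 8 h, and 35.9% and 37.9% at 24 h, so the number of members called is no result in itself. The libraries of both groups did not overlap for 9, 10 and 7 members at 4, 8 and 24 h, against 66.2%, 73.8% and 74.8% of all genes. The median log2 fold change of the members was 0.10, 0.13 and -0.02, beside -0.05, -0.05 and -0.02 for all genes. Without vehicle replicate 3 at 24 h, the calls of all 10 members at 24 h were the same, with edgeR log2 fold changes of 3.43 for Ccnd1, 0.73 for Ccne1, 0.72 for Ccne2, -0.12 for Cdkn1a, -0.71 for Cdkn1b, -1.25 for Cdkn2a and -1.30 for Cdkn2b, and of 0.04, 0.04 and 0.01 for Ccnd2, Ccnd3 and Cdkn2c, which were not called.

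**Figure D1:**
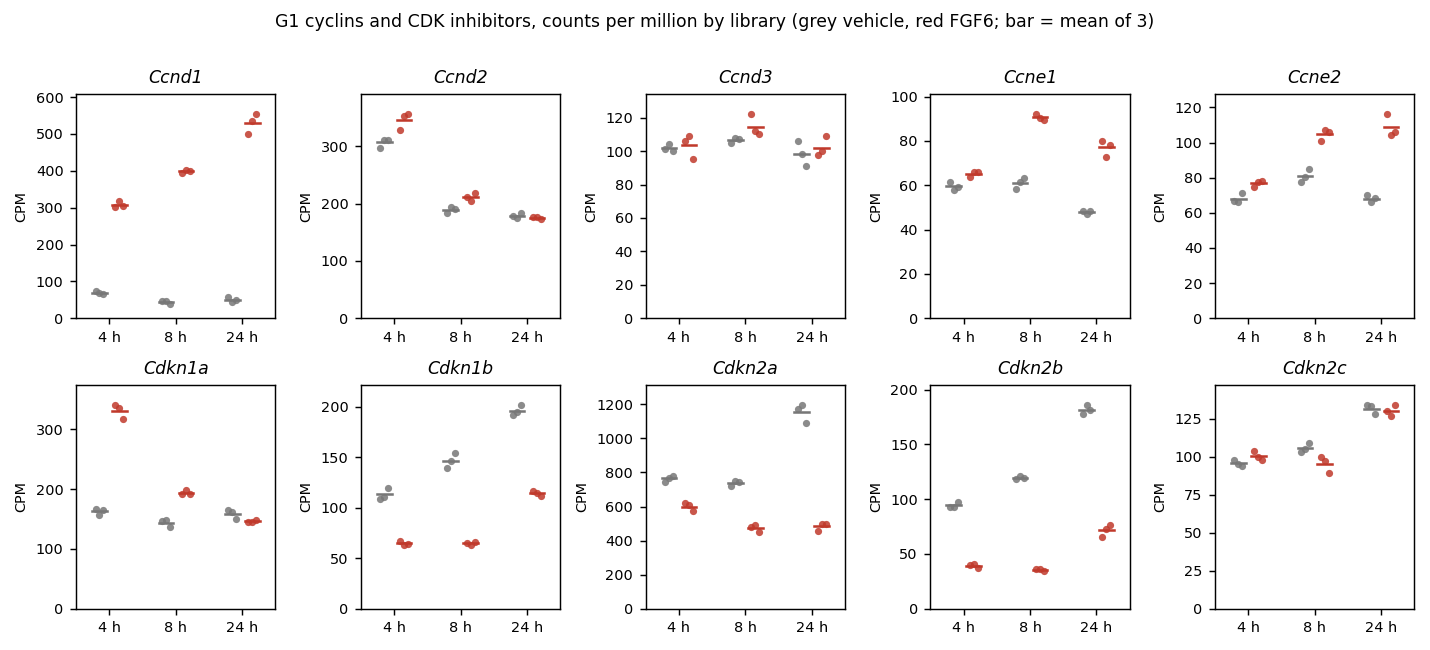
Level in CPM (y axis, from 0, a scale for each gene) of the 10 members in each library at 4, 8 and 24 h (x axis), with vehicle in grey and FGF6 in red, and a bar at the mean of 3 libraries. Ccnd1 sits between 303 and 553 CPM with FGF6 and below 74 CPM in every vehicle library, and Cdkn1b, Cdkn2a and Cdkn2b lie lower with FGF6 at all 3 times.

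Ccnd1, the D cyclin known as a target of growth factor signalling, changed most of the 10. Vehicle libraries held 73.8, 69.3 and 65.8 CPM at 4 h, 46.5, 46.7 and 38.8 CPM at 8 h, and 57.1, 44.3 and 50.5 CPM at 24 h. With FGF6 the values were 303, 318 and 304 CPM at 4 h, 393, 402 and 400 CPM at 8 h, and 499, 535 and 553 CPM at 24 h. Each FGF6 library lay above each vehicle library of any time. The rise was 4.43-fold at 4 h (log2 fold change 2.15 ± 0.07, edgeR adjusted p = 2.69e-19), 9.04-fold at 8 h (3.18 ± 0.07, adjusted p = 1.38e-22) and 10.5-fold at 24 h (3.39 ± 0.07, adjusted p = 2.04e-23). The effect at 8 h was larger than at 4 h by 1.03 ± 0.09 on the log2 scale (interaction, edgeR adjusted p = 6.33e-09), whereas the effects at 24 h and 8 h differed by 0.21 ± 0.09, which was not called (adjusted p = 0.0733). Both arms contributed to this: vehicle cells had less Ccnd1 at 8 h than at 4 h (-0.66 ± 0.07, edgeR adjusted p = 2.11e-08), and FGF6 cells had more (0.37 ± 0.06, adjusted p = 2.13e-05).

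Ccnd2 and Ccnd3, which pair with the same kinases, did not follow Ccnd1. Ccnd2 read 298, 311 and 312 CPM in vehicle and 328, 354 and 356 CPM with FGF6 at 4 h, and 183, 194 and 191 CPM against 212, 205 and 218 CPM at 8 h. At 24 h it read 178, 175 and 184 CPM against 177, 176 and 174 CPM. FGF6 libraries thus lay above vehicle at 4 h and 8 h and overlapped them at 24 h. Ccnd2 rose by 1.13-fold at 4 h (log2 fold change 0.17 ± 0.04, edgeR adjusted p = 0.000167) and 1.12-fold at 8 h (0.16 ± 0.04, adjusted p = 0.000395), and was not called at 24 h (-0.03 ± 0.04, adjusted p = 0.513). Its larger change was with time in both arms, from 4 h to 8 h by -0.70 ± 0.04 in vehicle (edgeR adjusted p = 6.72e-14) and by -0.71 ± 0.04 with FGF6 (adjusted p = 2.24e-14). Ccnd3 ranged from 91.0 to 108 CPM in vehicle libraries and from 95.6 to 122 CPM with FGF6. It was called at no time in the main fit, with log2 fold changes of 0.03, 0.11 and 0.05 and edgeR adjusted p of 0.647, 0.063 and 0.38. The call was close at 8 h, where DESeq2 gave 0.15 (adjusted p = 0.0113). With edgeR it was also called at 8 h without a count filter (0.12, adjusted p = 0.0141) and with at least 10 counts in every library (0.13, adjusted p = 0.0328). With only the libraries compared it was 0.14 (edgeR adjusted p = 0.00375). Limma voom, library totals alone and the replicate block each called 9 members at 8 h, as the main fit did. At 24 h the call rested on a library: without vehicle replicate 1, which had 106 CPM, Ccnd3 was higher by 0.15 (edgeR adjusted p = 0.0185).

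Levels of different genes were set side by side per kb of exon, merged over all annotated transcripts. These were 3 for Ccnd1 (4709 bp), 8 for Ccnd2 (9409 bp) and 21 for Ccnd3 (8775 bp). Such levels and shares therefore depend on the annotation, and the transcripts in use were not measured. Ccnd2 held 55.3% ± 1.41 (SD, n = 3) of D cyclin reads in vehicle at 4 h. Ccnd1 held 25.1% ± 1.44 and Ccnd3 19.6% ± 0.275. With FGF6, Ccnd1 held 57.4% ± 0.430 at 4 h, 70.4% ± 0.784 at 8 h and 78.7% ± 0.694 at 24 h, against 22.4% ± 1.92 and 26.2% ± 2.09 in vehicle at the later times. The share of Ccnd2 with FGF6 was 32.2%, 18.7% and 13.1%. Lowest and highest library values of the Ccnd1 share were 20.2% and 28.2% over all vehicle libraries, and no FGF6 library was below 57.0%. The difference in the Ccnd1 share at 24 h was 52.6 percentage points, and 52.7 without vehicle replicate 3. The exact permutation test gave p = 0.1 (two-sided) at each time, the smallest that 3 libraries against 3 allow.

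**Figure D2:**
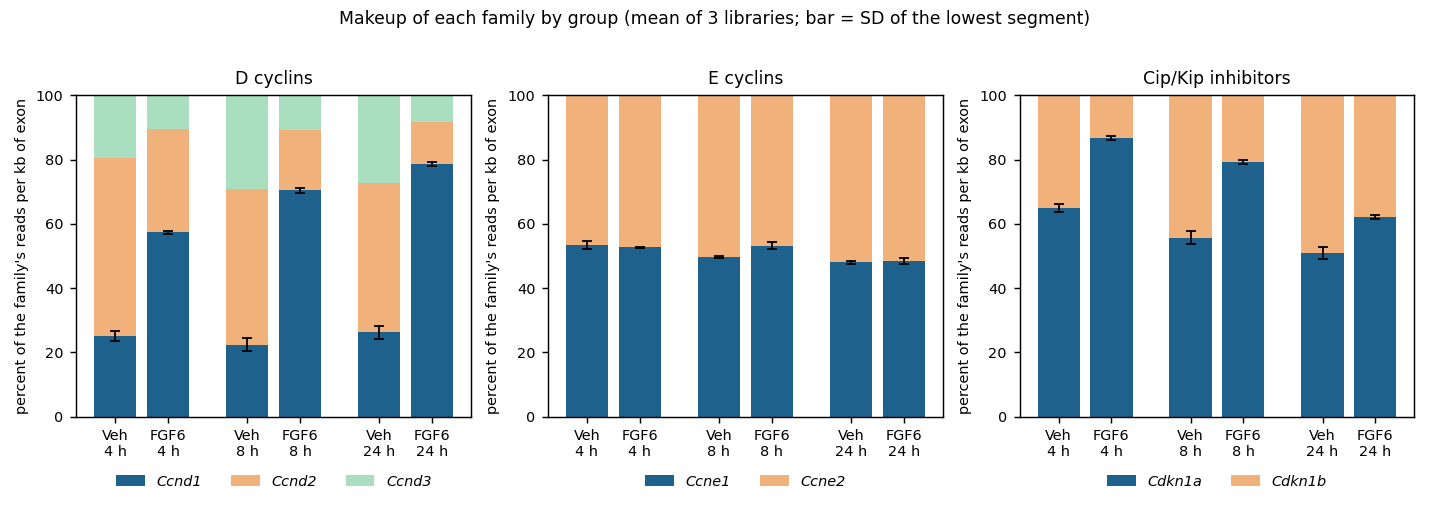
Mean share of each gene in the reads per kb of exon of its family (y axis, percent) in the 6 groups (x axis), for D cyclins, E cyclins and Cip/Kip inhibitors, with the SD over 3 libraries drawn on the lowest segment. Ccnd1 goes from 25.1% to 57.4% of D cyclins at 4 h and from 26.2% to 78.7% at 24 h, while Ccne1 stays between 48.0% and 53.4% of E cyclins in all groups.

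Both E cyclins had a larger FGF6 effect at 24 h than at 4 h. Ccne1 read 61.5, 57.7 and 59.2 CPM in vehicle and 63.7, 66.2 and 65.9 CPM with FGF6 at 4 h, 58.5, 61.4 and 63.1 against 92.0, 90.2 and 89.7 CPM at 8 h, and 48.3, 47.1 and 48.4 against 80.1, 72.9 and 78.3 CPM at 24 h. Ccne2 read 66.7, 66.3 and 71.2 against 74.8, 77.8 and 78.1 CPM at 4 h, 77.5, 80.5 and 84.7 against 101, 107 and 106 CPM at 8 h, and 69.9, 66.2 and 68.3 against 116, 104 and 106 CPM at 24 h. Both genes were higher in all FGF6 libraries than in the vehicle libraries of the same time, by a narrow margin at 4 h. Ccne1 was 1.10-fold higher at 4 h (log2 fold change 0.13 ± 0.04, edgeR adjusted p = 0.00614), 1.49-fold at 8 h (0.57 ± 0.04, adjusted p = 2.71e-12) and 1.61-fold at 24 h (0.69 ± 0.04, adjusted p = 9.69e-14). For Ccne2 the folds were 1.13 at 4 h (0.18 ± 0.05, edgeR adjusted p = 0.00149), 1.30 at 8 h (0.38 ± 0.04, adjusted p = 3.54e-08) and 1.59 at 24 h (0.67 ± 0.04, adjusted p = 6.12e-13). The effect at 24 h exceeded that at 4 h by 0.55 ± 0.06 for Ccne1 (interaction, edgeR adjusted p = 1.45e-08) and by 0.50 ± 0.06 for Ccne2 (adjusted p = 3.16e-07).

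The calls at 4 h for Ccnd2, Ccne1 and Ccne2 depended on the scaling. With library totals alone, without TMM factors, their log2 fold changes were 0.07, 0.03 and 0.07 and were not called (edgeR adjusted p = 0.071, 0.509 and 0.16). That scaling moved the median of all genes at 4 h from -0.05 to -0.15, and the share of called genes that were higher from 45.5% to 33.3%. Within the E cyclins the makeup moved little: Ccne1 held 53.4% ± 1.30 in vehicle and 52.7% ± 0.127 with FGF6 at 4 h (exact permutation p = 0.5, two-sided), 49.8% ± 0.297 and 53.2% ± 1.12 at 8 h (p = 0.1), and 48.0% ± 0.410 and 48.3% ± 0.910 at 24 h (p = 0.9).

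Cdkn1a, the p21 gene and also a p53 target gene, rose early and then returned to vehicle level or just below it. Its values were 167, 157 and 166 CPM in vehicle against 341, 336 and 318 CPM with FGF6 at 4 h, 147, 148 and 137 against 192, 199 and 192 CPM at 8 h, and 165, 162 and 150 against 146, 145 and 148 CPM at 24 h. FGF6 libraries were all higher at 4 h and 8 h and all slightly lower at 24 h. It was 2.03-fold higher at 4 h (log2 fold change 1.02 ± 0.04, edgeR adjusted p = 1.93e-17) and 1.35-fold higher at 8 h (0.43 ± 0.04, adjusted p = 4.33e-10). At 24 h it was 1.09-fold lower (-0.12 ± 0.04, edgeR adjusted p = 0.00857), but that call was lost in 8 of the 18 fits that left out 1 library. These were FGF6 replicates 1 and 3 and vehicle replicates 1 and 2 at 24 h, all FGF6 replicates at 4 h and FGF6 replicate 3 at 8 h, and without them the log2 fold change was -0.05 to -0.09 (adjusted p = 0.0751 to 0.292). The effect changed between each pair of times, by -0.59 ± 0.06 from 4 h to 8 h (interaction, edgeR adjusted p = 1.09e-08) and by -0.55 ± 0.06 from 8 h to 24 h (adjusted p = 1.16e-08). In FGF6 cells Cdkn1a fell by 0.77 on the log2 scale from 4 h to 8 h and by 0.41 from 8 h to 24 h, and in vehicle cells it moved by -0.18 and 0.14.

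Cdkn1b, which encodes p27, was lower with FGF6 at all 3 times. Vehicle libraries held 109, 111 and 120 CPM at 4 h, 140, 146 and 154 CPM at 8 h, and 192, 195 and 202 CPM at 24 h. FGF6 libraries held 67.5, 62.8 and 64.6 CPM, then 64.9, 63.6 and 65.9 CPM, and then 117, 115 and 112 CPM. No FGF6 library reached a vehicle library of its own time, and the FGF6 values at 24 h were close to the vehicle values at 4 h. Cdkn1b was 1.74-fold lower at 4 h (log2 fold change -0.80 ± 0.04, edgeR adjusted p = 5.52e-15), 2.26-fold at 8 h (-1.18 ± 0.04, adjusted p = 9.35e-19) and 1.71-fold at 24 h (-0.77 ± 0.04, adjusted p = 1.67e-15). The drop was deeper at 8 h than at 4 h by 0.38 ± 0.06 (interaction -0.38, edgeR adjusted p = 1.25e-05), and the effects at 24 h and 4 h differed by 0.03 ± 0.06 (adjusted p = 0.711). Per kb of exon, Cdkn1a made up 64.9% ± 1.15 of the reads of this pair in vehicle at 4 h and 86.7% ± 0.492 with FGF6. The shares were 55.7% ± 2.10 and 79.3% ± 0.643 at 8 h and 51.0% ± 1.94 and 62.1% ± 0.623 at 24 h (exact permutation p = 0.1 at each time, two-sided, the smallest possible).

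**Figure D3:**
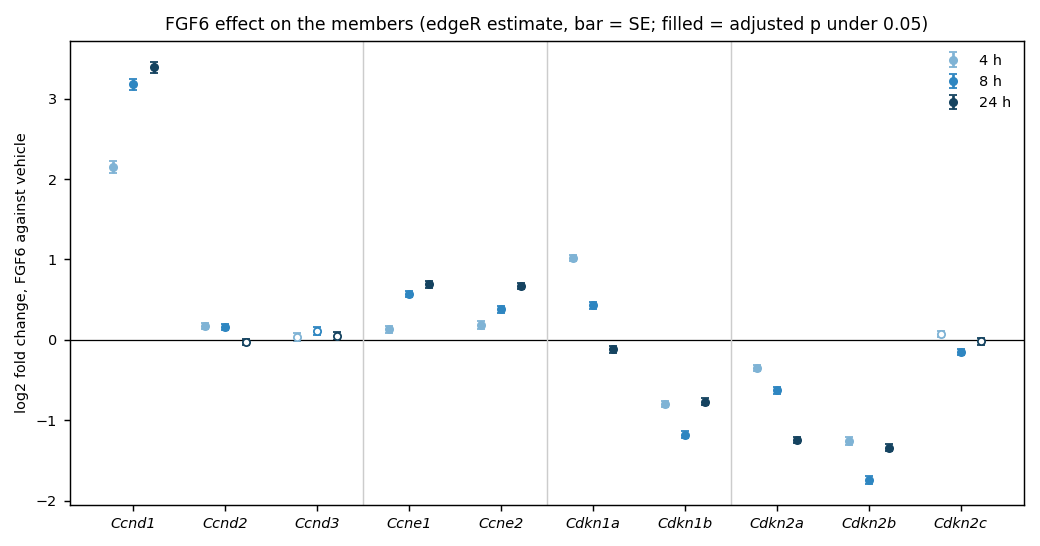
Log2 fold change of FGF6 against vehicle (y axis) for the 10 members (x axis) at 4, 8 and 24 h, from light to dark, with the SE as a bar and filled points for an edgeR adjusted p under 0.05. Ccnd1 reaches 3.39 at 24 h, Cdkn1a goes from 1.02 at 4 h to -0.12 at 24 h, and Cdkn2b is lowest at 8 h with -1.74.

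Of the 3 INK4 members, Cdkn2b, which is known to answer to TGF-beta, had the lowest log2 fold change at each time. At 24 h Cdkn2a lay close to it (-1.25 ± 0.04 against -1.34 ± 0.04), and the difference between the genes was not tested. Vehicle values of Cdkn2b were 92.8, 92.8 and 97.3 CPM at 4 h, 118, 121 and 119 CPM at 8 h, and 178, 186 and 181 CPM at 24 h. With FGF6 they were 40.0, 40.6 and 37.0 CPM, then 36.5, 36.4 and 34.2 CPM, and then 65.8, 73.2 and 76.4 CPM. All 9 FGF6 libraries were below all 9 vehicle libraries. Cdkn2b was 2.40-fold lower at 4 h (log2 fold change -1.26 ± 0.05, edgeR adjusted p = 9.94e-18), 3.34-fold at 8 h (-1.74 ± 0.05, adjusted p = 7.64e-21) and 2.53-fold at 24 h (-1.34 ± 0.04, adjusted p = 2.58e-19). Its course resembled that of Cdkn1b in both arms: the effect was deepest at 8 h, with a difference of -0.47 ± 0.07 to 4 h (interaction, edgeR adjusted p = 4.93e-06) and of 0.40 ± 0.06 from 8 h to 24 h (adjusted p = 1.32e-05).

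Cdkn2a, which lies 11645 bp from Cdkn2b on chromosome 4, was by far the most abundant member per kb of exon and fell in another time course. It read 745, 770 and 781 CPM in vehicle against 620, 607 and 571 CPM with FGF6 at 4 h, 720, 748 and 741 against 478, 493 and 451 CPM at 8 h, and 1174, 1196 and 1090 against 455, 499 and 500 CPM at 24 h. FGF6 libraries were below vehicle at each time, and the distance grew. The fall was 1.28-fold at 4 h (log2 fold change -0.35 ± 0.04, edgeR adjusted p = 4.54e-08), 1.55-fold at 8 h (-0.63 ± 0.04, adjusted p = 5.51e-13) and 2.38-fold at 24 h (-1.25 ± 0.04, adjusted p = 3.95e-19). From 8 h to 24 h the effect changed by -0.62 ± 0.06 (interaction, edgeR adjusted p = 3.29e-09), where vehicle cells rose by 0.65 ± 0.04 (adjusted p = 2.68e-12) and FGF6 cells had a change of 0.03 ± 0.04 (adjusted p = 0.539). The protein-coding gene next to the pair, Mtap, an enzyme of methionine salvage, was higher with FGF6 (log2 fold change 0.66, 0.83 and 0.46 at 4, 8 and 24 h, edgeR adjusted p = 2.23e-15, 1.34e-17 and 1.46e-12). Mtap was looked at as a neighbour after the values of the pair were known.

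Cdkn2c ranged from 93.7 to 134 CPM in vehicle libraries and from 89.1 to 134 CPM with FGF6. Its FGF6 values, 104, 99.8 and 97.8 CPM at 4 h, lay just above vehicle (97.8, 95.3 and 93.7 CPM), and at 8 h 99.5, 96.9 and 89.1 CPM lay below 103, 105 and 109 CPM. The gene was called at 8 h alone, as 1.11-fold lower (log2 fold change -0.15 ± 0.04, edgeR adjusted p = 0.00163), and that call was lost without FGF6 replicate 3 of that time (-0.06, adjusted p = 0.19). At 4 h and 24 h the log2 fold changes were 0.07 ± 0.04 and -0.02 ± 0.04 (edgeR adjusted p = 0.107 and 0.728). The value at 4 h became -0.03 with library totals alone, whereas Cdkn2c was called as higher with DESeq2 (0.10, adjusted p = 0.0394), with a filter of at least 10 counts in every library (0.10, edgeR adjusted p = 0.0288) and with only the libraries compared (0.11, edgeR adjusted p = 0.0181).

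Members differed between the times without FGF6 as well, and the labels do not separate time from culture or batch. In vehicle cells 7 of the 10 differed between 8 h and 4 h, where 43.0% of all genes did, and 8 between 24 h and 8 h, where 49.2% did. Without vehicle replicate 3 at 24 h, Ccnd2 was called as well between 24 h and 8 h (log2 fold change -0.11, edgeR adjusted p = 0.029, against -0.08 and 0.0556 with it). In FGF6 cells 8 differed between 8 h and 4 h, against 48.2% of all genes, and 8 between 24 h and 8 h, against 62.3%. The inhibitors were highest at 24 h in vehicle cells, other than Cdkn1a. Cdkn1b rose by 0.38 from 4 h to 8 h and by 0.42 from 8 h to 24 h on the log2 scale, Cdkn2b by 0.34 and 0.61, and Cdkn2c by 0.14 and 0.32 (edgeR adjusted p from 1.36e-11 to 0.00412). In FGF6 cells Cdkn2b was lower at 8 h than at 4 h (-0.13, edgeR adjusted p = 0.03) and Cdkn1b and Cdkn2c were not called, and all 3 rose from 8 h to 24 h, by 0.82 for Cdkn1b, 1.01 for Cdkn2b and 0.45 for Cdkn2c (edgeR adjusted p = 4.5e-15, 2.5e-15 and 2.27e-10). The E cyclins were lower in vehicle at 24 h than at 8 h, by 0.35 for Ccne1 and 0.25 for Ccne2 (log2 fold change -0.35 and -0.25, edgeR adjusted p = 1.8e-07 and 5.89e-05). In FGF6 cells Ccne1 fell by 0.23 over the same interval, and Ccne2 had a change of 0.05 ± 0.04 that was not called.

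The FGF6 effect itself differed between 8 h and 4 h for 8 members, against 30.6% of all genes, between 24 h and 8 h for 6, against 45.1%, and between 24 h and 4 h for 6, against 53.5%. These calls were the same without vehicle replicate 3 at 24 h for both differences that involve 24 h. Comparisons between times share libraries and are not independent of each other. For the differences of effect that involve 24 h the counts of members lie near the shares of all genes and are no result in themselves. With library totals alone, the share of called genes that were higher went from 51.8% to 36.4% for vehicle at 24 h against 8 h, from 50.1% to 61.8% for FGF6 at 8 h against 4 h, and from 52.9% to 63.3% for the effect at 24 h minus that at 4 h.

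The order of the members by level, as CPM per kb of exon (RPKM, mean ± SD of 3 libraries), was set by the inhibitors in vehicle and was changed at the top by FGF6. This order depends on the merged exon lengths, from 1172 bp for Cdkn2a to 9409 bp for Ccnd2. In vehicle at 4 h it ran from Cdkn2a (653 ± 15.9) through Cdkn2b (67.8 ± 1.87), Cdkn1a (45.9 ± 1.52), Cdkn2c (35.6 ± 0.770), Ccnd2 (32.7 ± 0.834), Cdkn1b (24.9 ± 1.23), Ccne1 (22.3 ± 0.727), Ccne2 (19.5 ± 0.781) and Ccnd1 (14.8 ± 0.857) to Ccnd3 (11.6 ± 0.276), with no overlap between neighbours. With FGF6 at 4 h Ccnd1 had 65.5 ± 1.79 RPKM, behind only Cdkn2a (511 ± 21.9) and Cdkn1a (93.3 ± 3.42). At 8 h Ccnd1 was last in vehicle (9.34 ± 0.952) and second to Cdkn2a with FGF6 (84.6 ± 0.999). At 24 h the same held (10.8 ± 1.37 and 112 ± 5.88), and the 2 lowest vehicle genes, Ccnd3 and Ccnd1, overlapped. Cdkn1b took the opposite path at 24 h, from 43.1 ± 1.17 RPKM in vehicle, overlapping Cdkn1a, to 25.2 ± 0.501 with FGF6, below both E cyclins.

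The kinases, pocket proteins and E2F factors that work with the members are described next, and the shares of all genes called higher and lower at each time are repeated here for reading the counts: 28.6% and 34.2% at 4 h, 32.4% and 38.4% at 8 h, and 35.9% and 37.9% at 24 h, with medians of -0.05, -0.05 and -0.02. Of 34 such partners, 12 were higher and 13 lower at 4 h, 16 and 11 at 8 h, and 23 and 9 at 24 h, with medians of -0.02, 0.07 and 0.19. With library totals alone the split at 4 h was 8 and 19, with a median of -0.12, and at 8 h 13 and 13. Without vehicle replicate 3 the split at 24 h was 24 and 7, with a median of 0.24. The same fit moved the splits at the other times, to which this library does not belong, to 13 and 12 at 4 h and 19 and 11 at 8 h. The cause of these shifts was not tested. Cdk4 was abundant, with 1015 ± 31.3 CPM in vehicle and 998 ± 4.94 CPM with FGF6 at 4 h, and changed by -0.02, 0.08 and 0.06 on the log2 scale, of which the latter values were called (edgeR adjusted p = 0.0063 and 0.0316). Cdk6 rose from 39.0 ± 2.62 to 69.0 ± 2.03 CPM at 4 h (log2 fold change 0.82 ± 0.06, edgeR adjusted p = 1.81e-12), by 1.06 ± 0.06 at 8 h (adjusted p = 7.53e-15) and by 0.40 ± 0.06 at 24 h (adjusted p = 9.46e-07). Cdk2, the partner of the E cyclins, was not called at 4 h or 8 h and was lower at 24 h (160 ± 5.54 against 140 ± 3.15 CPM, log2 fold change -0.20 ± 0.04, edgeR adjusted p = 3.03e-05). Ccna2, the cyclin A gene of S phase, was lower at 4 h and 8 h and higher at 24 h (-0.50, -0.47 and 0.15, edgeR adjusted p = 5.04e-13, 9.98e-13 and 0.000114).

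The remaining INK4 and Cip/Kip genes were in this list. Cdkn2d, which encodes p19Ink4d, was the lowest of the 34 at 4 h and 8 h and fell from 29.3 ± 0.363 to 11.1 ± 1.01 CPM at 4 h (log2 fold change -1.39 ± 0.06, edgeR adjusted p = 6.29e-16) and by 1.53 at 8 h and 0.67 at 24 h on the log2 scale. Cdkn1c, which encodes p57, was barely expressed and was called at 24 h, with 1.55 ± 0.435 CPM in vehicle and 0.316 ± 0.151 CPM with FGF6 (-2.30 ± 0.36, edgeR adjusted p = 2.74e-06). Of the pocket proteins, Rb1 fell at all times (log2 fold change -0.37, -0.70 and -0.48) and so did Rbl2, the p130 gene of resting cells (-0.79, -0.86 and -0.46). Rbl1, the p107 gene, named after its values were seen, was lower at 4 h and 8 h and higher at 24 h (-0.15, -0.32 and 0.18, edgeR adjusted p = 0.00112, 4.06e-08 and 0.000195). E2f1 had equal means at 4 h (101 ± 1.89 and 101 ± 0.517 CPM) and was higher by 0.58 ± 0.03 at 8 h and 0.38 ± 0.03 at 24 h (edgeR adjusted p = 1.17e-14 and 5.17e-11). E2f8, a repressor that E2F1 induces, rose at all 3 times (1.02, 1.35 and 1.66), and E2f2 was lower at 4 h (-0.37) and higher at 8 h and 24 h (0.52 and 1.21).

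Genes of DNA replication and of mitosis are read against the same shares and medians of all genes. Of 22 S phase genes, 6 were higher and 8 lower at 4 h, 14 and 4 at 8 h, and 16 and 1 at 24 h (medians -0.02, 0.18 and 0.23), and with library totals alone the split at 4 h was 3 and 14. Cdc6, which loads the replicative helicase, had log2 fold changes of -0.11, 0.48 and 0.65 at 4, 8 and 24 h. The gene that was lower at 24 h was Mcm6, a helicase subunit, at -0.34. Without vehicle replicate 3 at 24 h the split was 18 and 1 for S phase genes at that time and 12 and 1 for G2 and M phase genes. In that fit the split of S phase genes was 6 and 5 at 4 h and 15 and 4 at 8 h. All 16 genes of G2 and M phase were lower at 4 h, 15 of 16 at 8 h, and at 24 h 11 were higher and 2 lower (medians -0.50, -0.45 and 0.36). Mki67, a marker of dividing cells, read 381 ± 11.9 and 204 ± 4.05 CPM at 4 h (log2 fold change -0.91 ± 0.04, edgeR adjusted p = 5.83e-16), 573 ± 15.9 and 316 ± 15.4 CPM at 8 h (-0.86 ± 0.04, adjusted p = 7.46e-16), and 536 ± 33.2 and 498 ± 6.90 CPM at 24 h (-0.11 ± 0.04, adjusted p = 0.0211), where libraries overlapped. Bub1, a spindle checkpoint kinase, had -0.62, -0.56 and 0.79, and Cdk1, the mitotic kinase, -0.13, -0.04 and 0.58.

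**Figure D4:**
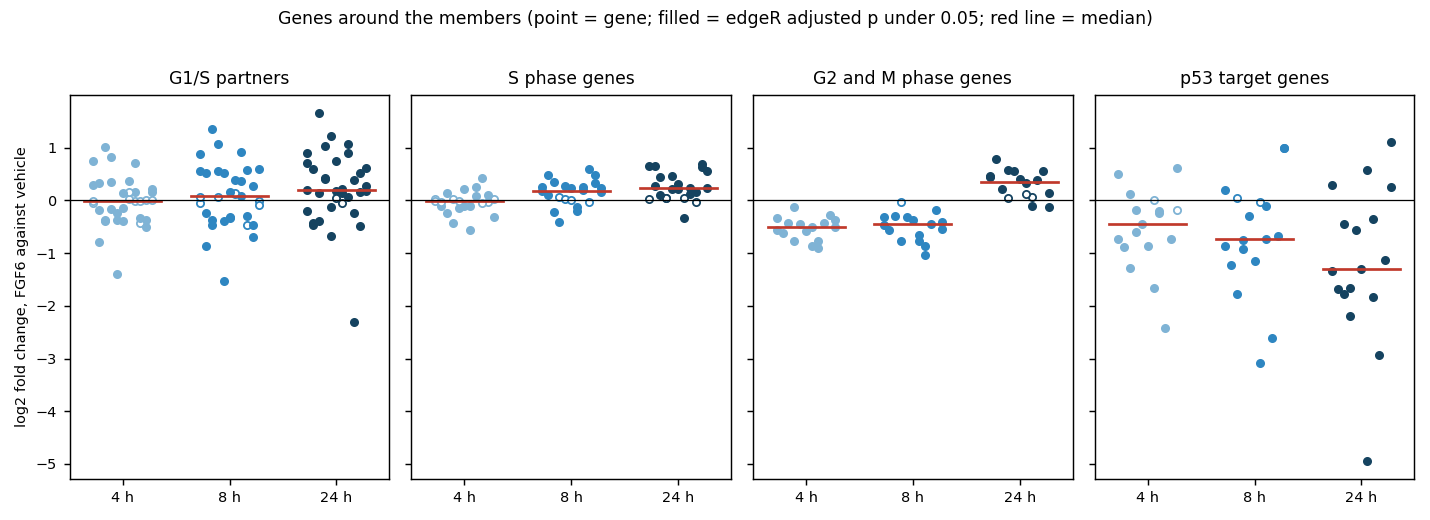
Log2 fold change of FGF6 against vehicle (y axis) at 4, 8 and 24 h (x axis) for each tested gene of 4 lists, filled for an edgeR adjusted p under 0.05, with the median as a red line. Medians of the G2 and M phase genes go from -0.50 at 4 h to 0.36 at 24 h, and those of p53 target genes from -0.45 to -1.30.

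Other genes known as p53 targets are given beside Cdkn1a. Of 17 such genes tested, Cdkn1a not among them, 3 were higher and 12 lower at 4 h, 3 and 12 at 8 h, and 4 and 13 at 24 h, with medians of -0.45, -0.74 and -1.30, beside -0.05, -0.05 and -0.02 for all genes and the shares of all genes given with the partners. The split at 24 h was the same without vehicle replicate 3 (median -1.23). Trp53inp1, a stress protein, went from 48.9 ± 1.36 to 9.11 ± 1.24 CPM at 4 h (log2 fold change -2.43 ± 0.07, edgeR adjusted p = 7.06e-20) and from 141 ± 8.43 to 18.4 ± 1.08 CPM at 24 h (-2.94 ± 0.06, adjusted p = 2.55e-23). Fas, a death receptor, had log2 fold changes of -1.66, -3.08 and -4.95. At 24 h it read 25.5 ± 0.985 CPM in vehicle and 0.823 ± 0.204 CPM with FGF6. Mdm2, the ubiquitin ligase of p53, rose at all 3 times (0.49, 0.20 and 0.29, edgeR adjusted p = 7.95e-11, 0.000111 and 4.35e-07), as did Aen, a nuclease (0.62, 0.99 and 0.25). The other gene that was higher at 4 h was Tnfrsf10b, a death receptor named after its values were seen (0.12, edgeR adjusted p = 0.033). Pmaip1 was higher at 8 h and 24 h (0.99 and 1.11), at a low level of 1.34 ± 0.179 CPM in vehicle and 2.89 ± 0.468 CPM with FGF6 at 24 h. Gadd45a was higher at 24 h (0.58).

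Over the 18 libraries, the genes whose log2 CPM followed Ccnd1 most closely among 10381 genes with a mean of at least 5 CPM were Klhl2 (Pearson r = 0.9976), Hmga2 (0.9963), Gprc5a (0.9959), Eif2b2 (0.9952) and Peak1 (0.9944). Hmga2, a chromatin protein, had log2 fold changes of 2.82, 3.83 and 3.91. For Cdkn1a they were Syne3 (0.9692), Aff1 (0.9647), Tmem120a (0.9635), S1pr2 (0.9605) and Zfp36l2 (0.9603). Zfp36l2, which promotes decay of mRNAs, had log2 fold changes of 1.31, 0.87 and 0.25. These correlations describe the libraries, which fall into 6 groups, and carry no test.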

How the data were processed

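RNA from the 18 libraries was sequenced on an Illumina HiSeq instrument. The authors aligned reads to GRCm38.p4 with STAR and deposited raw counts per gene from Subread featureCounts, without normalization. Versions, annotation release, strand and multi-mapping settings are not given in the sources used here. Gene symbols, positions and merged exon lengths came from GENCODE M21, which held 98.5% of the 48023 identifiers. edgeR 4.0.16 (R 4.3.3) kept 15071 genes with filterByExpr, computed TMM factors and fitted 6 group means without covariates (common biological coefficient of variation 0.0458). Family shares were compared with exact permutation tests. Libraries of a group differed by more than sampling noise (chi-square per degree of freedom at least 2.34), and vehicle replicate 3 at 24 h stood apart from its group.

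The members and lists were chosen with earlier results of these data known. Named genes are the members, Cdk2, Cdk4, Cdk6, Rb1, E2f1 and Ccna2, and genes drawn from the 2 highest and 2 lowest called in each list at each time with at least 1 CPM; genes that overlap a member were added. Alternatives were limma 3.58.1 with voom, DESeq2 1.42.0, library totals alone, other filters, only the libraries compared, the replicate number as a block, FDR thresholds of 0.25 and of 0.05 with at least 1.5-fold, and leaving out each library. Counts of list genes without vehicle replicate 3 at 24 h were chosen after seeing the data.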

Additional observations from a re-analysis of the deposited data

Results flagged for a closer look

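The FGF6 effect on the members differed between times in 20 of the 30 comparisons tested as interactions in edgeR (adjusted p under 0.05). These were 8 of 10 members between 4 h and 8 h, where 30.6% of all genes differed. They were 6 between 8 h and 24 h, against 45.1%, and 6 between 4 h and 24 h, against 53.5%. The difference between 4 h and 24 h is the sum of the others, so the 20 calls are not independent. For the differences that involve 24 h the counts lie near the shares of all genes. The number of members called is no result in itself. Between 4 h and 8 h the log2 fold change moved by 1.03 for Ccnd1, 0.44 for Ccne1 and 0.20 for Ccne2, and by -0.59 for Cdkn1a, -0.38 for Cdkn1b, -0.28 for Cdkn2a, -0.47 for Cdkn2b and -0.22 for Cdkn2c. Between 8 h and 24 h it moved by 0.30 for Ccne2, 0.41 for Cdkn1b and 0.40 for Cdkn2b, and by -0.18 for Ccnd2, -0.55 for Cdkn1a and -0.62 for Cdkn2a. Between 4 h and 24 h it moved by 1.24 for Ccnd1, 0.55 for Ccne1 and 0.50 for Ccne2, and by -0.20 for Ccnd2, -1.14 for Cdkn1a and -0.90 for Cdkn2a.

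The signs of these differences are set out for members called in both intervals, and no test compared members with each other. For Cdkn1b and Cdkn2b the difference changed sign, from lower between 4 h and 8 h to higher between 8 h and 24 h. For Cdkn1a and Cdkn2a it was lower in both intervals, and for Ccne2 higher in both. Ccnd1 and Ccne1 were also higher in both. Between 8 h and 24 h their differences, 0.21 and 0.11, were not called (edgeR adjusted p = 0.0733 and 0.113). Cdkn2c also changed sign, with a difference of 0.13 between 8 h and 24 h that was not called (edgeR adjusted p = 0.0519). Ccnd3 was called in none of the 3 differences. The larger values at 24 h against 4 h belong to Ccnd1, Cdkn1a and Cdkn2a.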

How the results depend on the processing

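The count of members called kept within 1.5 times its main value in 80 of 90 recalculations with another setting and in all 180 that left out 1 library. At 4 h, library totals alone gave 5 members in place of 8. Asking for at least 1.5-fold as well gave 4 members at 4 h, 4 at 8 h, 2, 1 and 3 for the differences of effect (8 h minus 4 h, 24 h minus 8 h, 24 h minus 4 h), 2 and 2 for vehicle cells over time, and 2 and 2 for FGF6 cells over time, as its construction asks for larger changes. Without one library the counts were 8 to 9, 9 to 10 and 6 to 7 for FGF6 against vehicle at 4, 8 and 24 h.

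Single values turned sign where they were near 0. Library totals alone gave -0.07 for Ccnd3 and -0.03 for Cdkn2c at 4 h, and DESeq2 gave 0.00 for Cdkn2c at 24 h. Leaving out 1 library gave -0.03 to 0.04 for Ccnd2 and -0.02 to 0.04 for Cdkn2c at 24 h, and a difference in the Ccne1 share at 24 h of -0.254 to 0.638 percentage points. Ccnd3 at 8 h (0.15 to 0.18) became called in 9 such fits, without any vehicle library of 24 h, any FGF6 library of 4 h, FGF6 replicate 1 or 3 of 24 h, or FGF6 replicate 3 of 8 h. Cdkn2c at 4 h (0.10 to 0.12) became called in 7, without the same libraries other than FGF6 replicates 1 and 2 of 4 h. The cause was not tested. No other member changed direction in FGF6 against vehicle under any of these settings.

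The labels state no pairing of same-numbered vehicle and FGF6 libraries. None of 9 pairs had a correlation of deviations over 0.1, and 10 of 18 libraries correlated best with their own number. This check cannot exclude a shared culture, as each group held only 3 libraries. With the replicate number as a block, 8, 9 and 7 members were called at 4, 8 and 24 h, as without the block. With 3 libraries a group, the SE of a member's log2 fold change was 0.04 to 0.07.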
